A study of Mus musculus with 4 samples.

Results

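Wide distal regions that carried an H3K27ac peak in limb EGFP+ cells and in no other sorted population numbered 1445 of 62558 regions in all. H3K27ac is an acetylated form of histone H3 found at active enhancers and promoters, and ChIP-seq mapped it in cells of mouse fetuses at E14.5 that had been sorted into 4 populations. Peaks of the 4 lists that overlapped were merged into regions, and 42651 regions lay outside the promoter windows, which ran from 2 kb before to 500 bp after each protein-coding start site. A region was taken when a limb EGFP+ peak was its sole content and when it was at least 400 bp wide. These regions made up 3.39% of the distal regions, and 15.5% of the 9319 distal regions of any width that held a limb EGFP+ peak alone. The regions were selected on measured values, namely peak presence, peak absence and width, which are therefore no finding.

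All 4 populations carried the genotype Col2a1-EGFP on a G4 background, which is a reporter cassette with a minimal β-globin promoter placed upstream of Col2a1 in embryonic stem cells, from which the fetuses were raised by tetraploid aggregation. Limbs (fore- and hindlimbs, all segments) and trunks (neck to tail, internal organs removed) were dissected from untreated fetuses at E14.5, and cells were sorted as EGFP+ or EGFP−. Cells of several fetuses were combined, and each population gave 1 library, so no difference between populations had a replicate check and none was tested. Confidence intervals below are exact (Clopper-Pearson) at the 95% level and cover counting error over regions or genes only, which are not replicates. The limb libraries were sequenced on another lane than the trunk libraries, and the effects of lane and tissue cannot be told apart. The lists held 40899 peaks for limb EGFP+, 34360 for limb EGFP−, 36231 for trunk EGFP+ and 30716 for trunk EGFP− cells. A similar number of reads had been sampled per library before mapping and filtering. The lowest background in each list was 1.49, 1.63, 1.60 and 1.83 reads per 200 bp, in the same order. Nor can fewer cells of a type be told apart from less acetylation per cell.

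Chondrocytes build the cartilage template of the long bones and vertebrae by secreting collagen II and proteoglycans, and the factor SOX9 with its partners SOX5 and SOX6 drives this program in limb and trunk alike. Limb and axial cartilage differ in origin, since limb chondrocytes arise from lateral plate mesoderm patterned by homeobox and T-box factors, and vertebral chondrocytes from the sclerotome. Distal enhancers, which often act over long distances, carry much of such regional control. Of 13 chondrocyte marker genes, 12 had a promoter peak in the limb EGFP+ list and 12 in the trunk EGFP+ list, against 5 and 4 in the limb and trunk EGFP− lists. Foxa2, a hedgehog-responsive forkhead factor, was the marker with none in any list. Of 6 limb identity genes, 4 had a promoter peak in limb EGFP+, 3 in limb EGFP−, 1 in trunk EGFP+ and 0 in trunk EGFP− cells. Shox2 and Hoxa13 had none. Of 4 axial genes, 3 had a promoter peak in trunk EGFP+ cells and 1, Pax9, in limb EGFP+ cells (−log10 p 5.49). In the limb EGFP+ list, promoter peaks were found at 2 of 23 skeletal muscle, 0 of 17 skin epithelium, 3 of 20 endothelium and blood and 5 of 18 neural markers, against 54.4% of all protein-coding genes. In the limb and trunk EGFP− lists the counts were 4 and 4, 4 and 1, 3 and 2, and 3 and 4. Low counts at these markers were thus shared with the EGFP− lists and do not measure purity. Promoter peaks of limb EGFP+ cells were also found at 13 of 20 perichondrium and osteoblast and 16 of 21 tendon and connective tissue genes. The other 3 lists had like counts (12 each, and 16 to 18), and the part of such cells in the results was not tested.

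The sequence around the summit of the region with the highest −log10 p is shown first, followed by the runner-up, by a region near the limb-specific chondrogenic gene Stac and by the strongest regions near limb patterning factors (Tbx2 with Tbx4, and Msx1). Each is 200 bp of the GRCm39 plus strand centred on the summit, with the SOX site ACAAAG, or its reverse complement, in capitals.
Clic4 intron, chr4:134981723-134981922: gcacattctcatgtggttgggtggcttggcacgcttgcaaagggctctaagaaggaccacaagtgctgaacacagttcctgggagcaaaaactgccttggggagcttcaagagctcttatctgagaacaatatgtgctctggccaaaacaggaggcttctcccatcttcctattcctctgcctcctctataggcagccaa
Wdr11 distal, chr7:129411642-129411841: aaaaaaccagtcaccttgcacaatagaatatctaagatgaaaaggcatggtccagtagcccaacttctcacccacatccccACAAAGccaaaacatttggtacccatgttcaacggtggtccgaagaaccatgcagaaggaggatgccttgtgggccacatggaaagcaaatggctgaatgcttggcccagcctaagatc
Stac upstream, chr9:111592449-111592648: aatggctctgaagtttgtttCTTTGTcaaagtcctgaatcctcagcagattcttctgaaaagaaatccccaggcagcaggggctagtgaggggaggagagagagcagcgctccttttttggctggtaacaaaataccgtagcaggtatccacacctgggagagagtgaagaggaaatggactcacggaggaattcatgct
Between Tbx2 and Tbx4, chr11:85742992-85743191: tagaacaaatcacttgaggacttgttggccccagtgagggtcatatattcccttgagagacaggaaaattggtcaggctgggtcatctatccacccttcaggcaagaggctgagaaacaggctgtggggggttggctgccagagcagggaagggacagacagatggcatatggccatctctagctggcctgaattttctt
Msx1 downstream, chr5:37909415-37909614: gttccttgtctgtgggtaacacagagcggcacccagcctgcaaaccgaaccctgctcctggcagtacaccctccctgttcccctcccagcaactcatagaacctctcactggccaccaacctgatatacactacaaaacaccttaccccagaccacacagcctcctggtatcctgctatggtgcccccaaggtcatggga

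The SOX site was found in the Wdr11 and Stac windows and not in the other 3. A further 3 windows drawn up with these are not printed and held none, so 2 of 8 held the site. Next are the 4 strongest regions, off exons, that held the homeobox core TAATTA within 100 bp of the summit, given in capitals. They show the motif whose share differed most clearly between the limb EGFP+ alone and the trunk EGFP+ alone regions, and were chosen after that share was seen. Only 71 of the 1445 regions (4.91%) held the core this close to the summit.
Hunk intron, chr16:90218523-90218722: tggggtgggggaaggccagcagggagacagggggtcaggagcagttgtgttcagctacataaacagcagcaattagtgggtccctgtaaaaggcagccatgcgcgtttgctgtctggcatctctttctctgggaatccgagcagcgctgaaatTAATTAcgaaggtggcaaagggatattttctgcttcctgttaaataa
Tab2 upstream, chr10:8049221-8049420: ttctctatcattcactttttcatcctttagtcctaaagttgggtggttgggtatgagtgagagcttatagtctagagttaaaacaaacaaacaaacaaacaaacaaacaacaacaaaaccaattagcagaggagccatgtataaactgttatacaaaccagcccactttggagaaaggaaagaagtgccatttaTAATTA
Hmgcll1 intron, chr9:75946025-75946224: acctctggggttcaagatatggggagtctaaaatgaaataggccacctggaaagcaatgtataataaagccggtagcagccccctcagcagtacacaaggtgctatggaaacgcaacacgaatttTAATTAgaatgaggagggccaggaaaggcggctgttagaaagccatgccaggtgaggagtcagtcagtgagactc
Serp2 upstream, chr14:76820544-76820743: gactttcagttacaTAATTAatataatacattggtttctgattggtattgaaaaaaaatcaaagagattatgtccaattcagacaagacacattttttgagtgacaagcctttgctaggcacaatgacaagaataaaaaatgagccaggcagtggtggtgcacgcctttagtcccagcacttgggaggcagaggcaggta

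The first of these lay in an intron of Hunk, which encodes a protein kinase, with 29 reads at the summit over a background of 4.44. The Tab2 region lay 217 kb upstream of the gene, and the Hmgcll1 region 24.1 kb into its gene. The Serp2 region lay 25.9 kb upstream of the gene with a −log10 p of 11.4.

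The regions were of moderate strength. Their −log10 p, the peak caller's measure of enrichment over local background, had a median of 7.64 (range 3.31 to 26.9), against 10.3 for the whole limb EGFP+ list. Only 299 (20.7%) lay above the median of that list. Regions marked in trunk EGFP+ cells alone, chosen in the same way, had a median of 6.03 and 9.43% above the median of their list, and regions marked in both EGFP+ populations and neither EGFP− population had 8.87 and 37.9%. The fold enrichment had a median of 3.96 and reached 9.12. The deposited fold and −log10 p together fix the read count, and gave a median of 18 reads at the summit (8 to 94) over a background of 3.78. Width had a median of 487 bp and a maximum of 1972 bp, and 1046 regions (72.4%) had a single summit. Width and −log10 p were used by the rule or come from the same peaks, so these values describe the choice.

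At the width threshold the change was gradual. The 58 regions of 400 to 404 bp had a median −log10 p of 7.24, and the 66 regions of 395 to 399 bp just outside had 6.48. The 7874 narrower limb EGFP+ alone regions had a median of 5.81, but reached 26.4.

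Absence from the other lists set a modest bound on the difference in signal. At each region's own background, a median of 12 reads would have reached the lowest −log10 p in the trunk EGFP+ list (3.36), and the regions had 1.53 times that many (median). The regions with at least 2 times the reads needed numbered 177 (12.2%) against trunk EGFP+, 176 against limb EGFP− and 153 (10.6%) against trunk EGFP−. At the median region, a signal lower by that factor in another population would have given no peak there. The background of the other libraries at these positions is not known from the lists, and the limb EGFP+ background stood in for it. The lowest background was 1.49 reads in the limb EGFP+ list and higher in the others, up to 1.83 in trunk EGFP−. Where the background was low, the reads needed in the other libraries may thus be understated.

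The 20 regions of highest −log10 p had 26 to 74 reads at the summit. The strongest (chr4:134981625-134982225, 601 bp) lay in an intron of Clic4, a chloride intracellular channel gene, with 47 reads over a background of 5.80, a fold of 7.06 and a −log10 p of 26.9. Clic4 had a promoter peak in the limb EGFP+ list and in none of the other 3. The runner-up (chr7:129411263-129411913) lay 202 kb downstream of Wdr11 with 66 reads over 13.5, and the next (chr12:12541692-12542163) 175 kb from Cyria with 42 reads over 5.08. Of the 20, 11 were intergenic, 7 intronic and 2 exonic, and 10 lay over 100 kb from any start site. A region 199 kb upstream of Isl1, a LIM homeobox factor needed for hindlimb outgrowth, had 34 reads over 3.94. A region 234 kb into Robo1, a receptor for Slit guidance cues, had 39 reads over 6.72. Near Dlk1, a transmembrane relative of Notch ligands, 74 reads stood over the highest background of the 20, 22.1. The region nearest to Gm21863 had the lowest background (1.96), the highest fold (9.12) and a GC content of 64.5%. The 5 widest regions lay in Entrep2 (1972 bp), near Rpl34 (1295 bp), Pou3f3 (1249 bp) and Dad1 (1235 bp) and in Tcf7l2 (1166 bp), with −log10 p between 7.84 and 10.9.

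**Figure D1:**
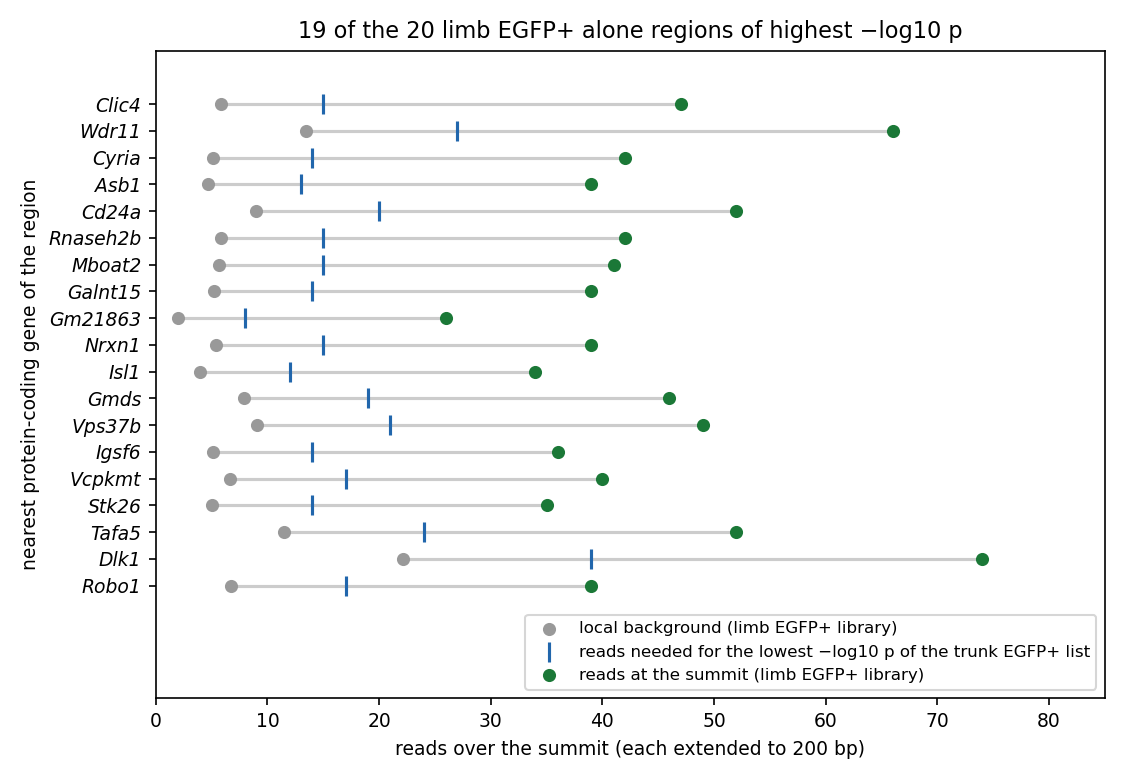
Reads over the summit (x axis, reads extended to 200 bp) for 19 of the 20 limb EGFP+ alone regions of highest −log10 p, named by nearest gene (y axis); green points are summit reads, grey points local background, and blue marks the reads needed at that background to reach the lowest −log10 p of the trunk EGFP+ list. Summit reads run from 26 (Gm21863) to 74 (Dlk1), and the Dlk1 region, at 1.90 times the reads needed, is the one below 2 times.

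Many of the regions adjoined peaks of other populations without overlapping them. A peak of at least 1 of the other 3 lists lay within 1 kb of 508 regions (35.2%, 32.7 to 37.7), most often a trunk EGFP+ peak (446, 30.9%), and less often a limb EGFP− (125, 8.65%) or trunk EGFP− peak (78, 5.398%). Among the 20 strongest, 10 had such a neighbour within 0.5 kb and 4 had none within 10 kb. A further limb EGFP+ peak lay within 1 kb of 772 regions (53.4%), and of 56.4% of the both EGFP+ only regions. Other sets of 1 population also adjoined peaks of lists other than their own. Such a peak lay within 1 kb of 32.7% (29.3 to 36.3) of trunk EGFP+ alone, 27.8% of limb EGFP− alone and 27.7% of trunk EGFP− alone regions. The 937 limb EGFP+ alone regions with no other list's peak within 1 kb had a median −log10 p of 7.53, and the other 508 had 7.88.

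The regions were far from promoters, whose windows the rule had left out. Of 1445, 676 (46.8%) were intergenic, 674 (46.6%) lay in introns and 95 (6.57%) touched an exon. The median distance to the nearest start site was 41.0 kb, against 34.4 kb for regions of both EGFP+ populations only and 18.4 kb for regions marked in all 4. It was 35.2 kb for trunk EGFP+ alone, 31.3 kb for trunk EGFP− alone and 42.4 kb, farther still, for limb EGFP− alone regions. More than 100 kb separated 377 regions (26.1%, 23.8 to 28.4) from any start site, against 22.03% (20.7 to 23.4) of the regions of both EGFP+ populations only, 23.6% (20.5 to 26.9) of the trunk EGFP+ alone and 28.1% (24.5 to 32.0) of the limb EGFP− alone regions. Its interval lay just above that of the both EGFP+ only regions, overlapped the 2 sets of 1 population, and was far from that of the regions marked in all 4 populations (11.6%, 10.6 to 12.7). Chromosome Y held 0 of the regions, and on the others density ran from 0.189 regions per Mb on chromosome X to 0.795 on chromosome 11, but X held few distal regions of any kind, and 4.56% of those belonged to the set. Within 50 kb of another such region lay 371 (25.7%). By the same count, in sets of unequal size, it was 10.1% of trunk EGFP+ alone, 7.91% of limb EGFP− alone, 4.18% of trunk EGFP− alone and 53.0% of both EGFP+ only regions. GC content had a median of 46.9%, and the ratio of observed to expected CpG was 0.219, close to 0.222 in the regions of both EGFP+ populations only.

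**Figure D2:**
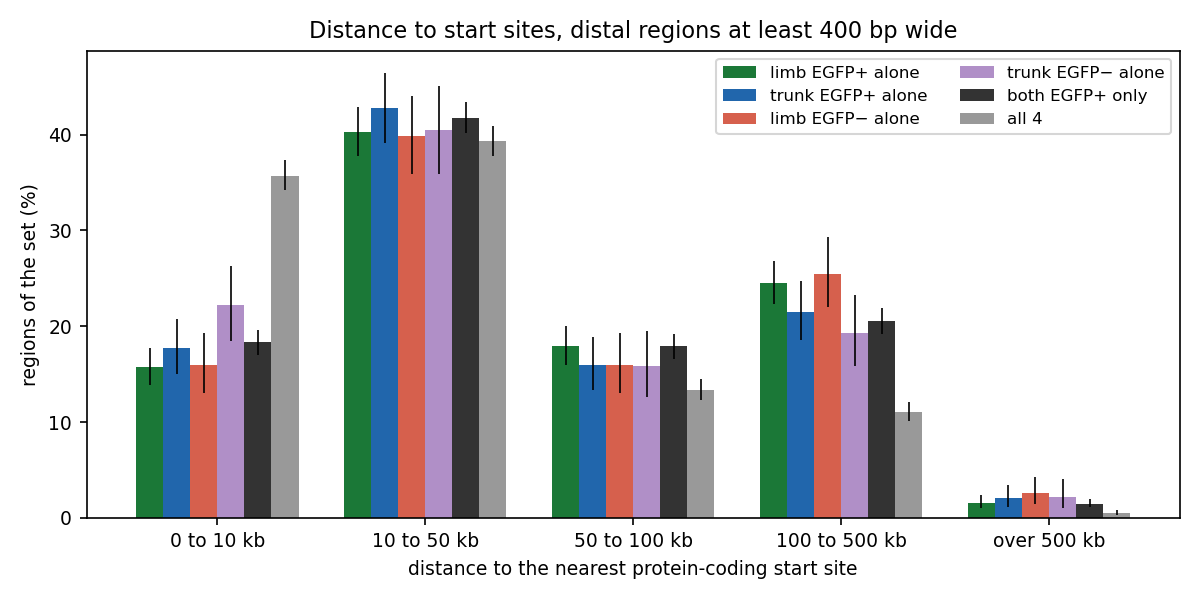
Share of regions (y axis, %) by distance to the nearest protein-coding start site (x axis) for 6 sets of distal regions at least 400 bp wide; bars are shares and whiskers exact 95% intervals. The limb EGFP+ alone regions (green) have shares close to those of limb EGFP− alone, fewer of them lie within 10 kb (15.7%) than of the trunk EGFP− alone regions (22.2%), and the regions marked in all 4 (light grey) stand apart, with 35.7% of them within 10 kb.

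Sox6 and Sox9 were the genes nearest to the most regions. Altogether 1117 genes were nearest to at least 1 region, 883 of them to 1 and 56 to 3 or more. Each was nearest to 8 regions, and Sox5, Sulf1 and Prickle1 followed with 6 each. The counts by nearest gene, and the loci taken from them, were set out after the values were seen. They take in regions at any distance, and no share of all distal regions was taken per nearest gene. At Sox9 the 8 regions ran from 837 kb upstream to 304 kb downstream, within the large gene desert around the gene, and the strongest (chr11:112502159-112502697) lay 171 kb upstream with 29 reads over 5.16. Only the region 42.7 kb upstream lay within 100 kb, and Sox9 was not among the 10 genes with the most regions in that window. The Sox6 regions lay 14.1 to 201 kb downstream of a start site, mostly in introns, and the strongest had 32 reads over 6.54. At Sox5 they lay from 151 kb upstream to 329 kb downstream. These loci were rich in regions of both EGFP+ populations only as well, 24 nearest to Sox9, 15 to Sox6 and 13 to Sox5, while trunk EGFP+ alone regions numbered 3, 2 and 3. At each of the 3 genes the regions of both EGFP+ populations only thus outnumbered those of limb EGFP+ alone.

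Sulf1 and Robo1 differed from the SOX loci in the wide distal regions of other sets nearest to them. Sulf1, an endosulfatase that edits heparan sulfate, was nearest to 6 limb EGFP+ alone regions and to 0 wide distal regions of trunk EGFP+ alone, limb EGFP− alone, trunk EGFP− alone or both EGFP+ only. Its promoter had a peak in the other 3 lists and none in trunk EGFP+. The Sulf1 regions were of low strength, with −log10 p of 3.61 to 9.08 and 11 to 21 reads. Robo1 was nearest to 4 regions and likewise to 0 of those 4 other sets, with a promoter peak in all 4 lists. Regions of other combinations of lists, such as both limb populations or all 4, were not counted by nearest gene. Prickle1, a planar cell polarity gene, was nearest to 6, Btg1, an antiproliferative gene, to 5, and Creb5, a transcription factor of articular chondrocytes, to 5, beside 3 limb EGFP− alone regions.

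**Figure D3:**
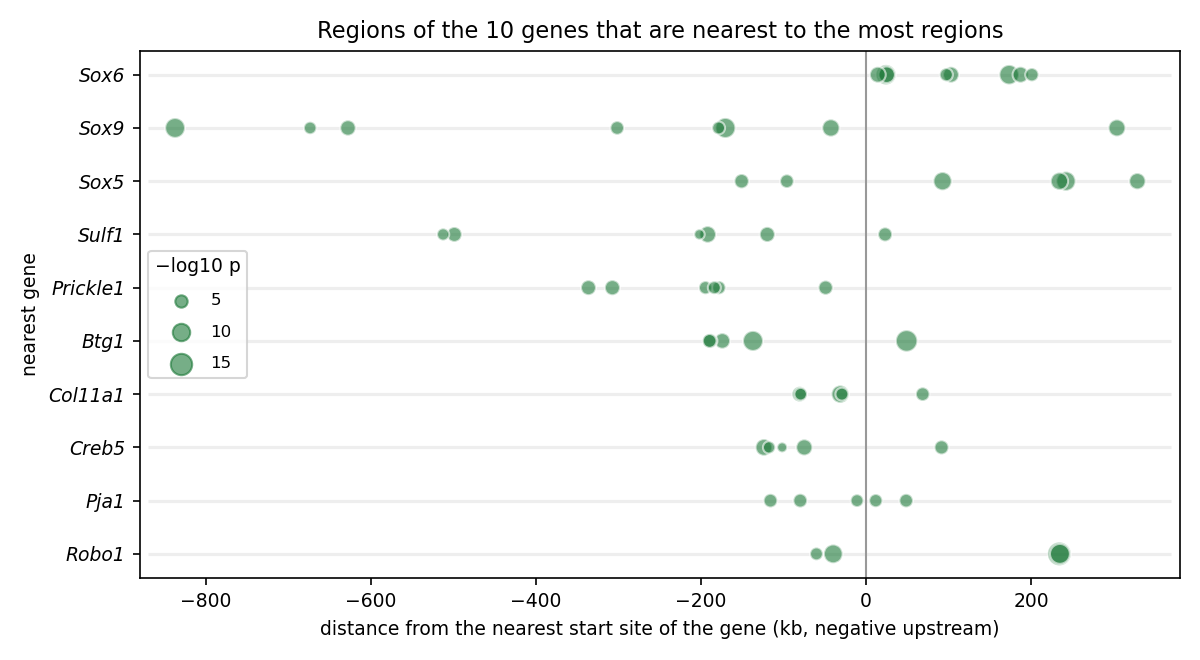
Position of each limb EGFP+ alone region relative to its nearest start site (x axis, kb, negative upstream) for the 10 genes nearest to the most regions (y axis); point area grows with −log10 p. The Sox9 regions span 837 kb upstream to 304 kb downstream, and all 8 Sox6 regions lie downstream of a start site.

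Counted by distance instead, 2246 of 21581 protein-coding genes (10.4%) had at least 1 limb EGFP+ alone region within 100 kb of a start site. The same background was 6.42% for trunk EGFP+ alone, 4.88% for limb EGFP− alone and 21.5% for both EGFP+ only regions, sets of unequal size. Col11a1, which encodes a chain of the fibrillar collagen XI of cartilage, had the most, 5, with −log10 p of 5.22 to 10.1 and 22 to 36 reads. Those 5 formed 2 close pairs, 79.4 and 80.6 kb and 29.4 and 31.3 kb upstream, and 1 region inside the gene that touched an exon. Sox6, the BMP receptor gene Bmpr1b, the potassium channel gene Kcnma1, Pdcd4, Tekt3, Ank3 and Pja1 had 4 each. Kcnma1 had a promoter peak in limb EGFP+ cells and in none of the other 3 lists. The Pdcd4 regions lay in the neighbouring genes Rbm20 and Bbip1, and a gene near a region is no statement that the region acts on it.

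The genes that the study called chondrogenic by RNA-seq of the same cell populations, and split into limb-specific, trunk-specific and common, were counted next. RNA was sequenced from other libraries than those analysed here. Only genes with a protein-coding start site were counted, which left 49 of 67 limb-specific, 43 of 58 trunk-specific and 563 of 654 common genes, and most of those left out are annotated as long non-coding RNAs. Of 563 common chondrogenic genes, 149 (26.5%, 22.9 to 30.3) had a limb EGFP+ alone region within 100 kb, and 58.4% had a region of both EGFP+ populations only. Of 49 limb-specific genes, 15 (30.6%, 18.3 to 45.4) had one, and of 43 trunk-specific genes, 7 (16.3%, 6.81 to 30.7), so these 2 intervals overlapped. For trunk EGFP+ alone regions the shares were 4.08% in the limb-specific list and 16.3% in the trunk-specific list. Chondrogenic genes had more distal regions of any kind nearby, a median of 7 for common, 4 for limb-specific and 5 for trunk-specific genes against 3 for all genes. Taken per distal region, limb EGFP+ alone regions were 22 of the 288 near limb-specific genes (7.64%, 4.85 to 11.3), 199 of 4195 near common genes (4.74%, 4.12 to 5.43) and 7 of 247 near trunk-specific genes (2.83%, 1.15 to 5.75). Near protein-coding genes as a whole they were 3.27% (3.08 to 3.46), so the intervals of the limb-specific and the common genes lay above it. From the side of the regions, 220 (15.2%, 13.4 to 17.2) lay within 100 kb of a limb-specific or common gene, against 12.1% (9.78 to 14.7) of trunk EGFP+ alone, 5.80% of limb EGFP− alone and 21.6% of both EGFP+ only regions. The interval of trunk EGFP+ alone overlapped that of the limb EGFP+ alone regions. Of all 42651 distal regions, 4195 lay near a common and 288 near a limb-specific gene.

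Among limb-specific genes, Tekt3, which encodes a tektin filament protein, had 4 regions, the strongest (chr11:62974455-62975029) inside the gene with 38 reads and a −log10 p of 17.1. Tekt3 had no promoter peak in any list. Stac had 2 regions 72.2 and 73.1 kb upstream, the stronger with 31 reads over 5.02 and a −log10 p of 15.1, and a promoter peak in limb EGFP+ alone. Prdm16, Tmem30b and Cmklr1 had 2 each, with −log10 p of 4.76 to 7.15. Among common genes, Wwp2, the host gene of the cartilage microRNA miR-140, had 3 regions with 34 to 94 reads, and Moxd1 had 3 with −log10 p of 8.08 to 14.6 and a promoter peak in limb EGFP+ alone. Among trunk-specific genes, T, the notochord factor brachyury, had 2 regions (−log10 p 7.61 and 4.12). Foxf1 and Foxl1 shared 1 region (−log10 p 12.5), and Foxf2 and Mgst2 had 1 each.

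**Figure D4:**
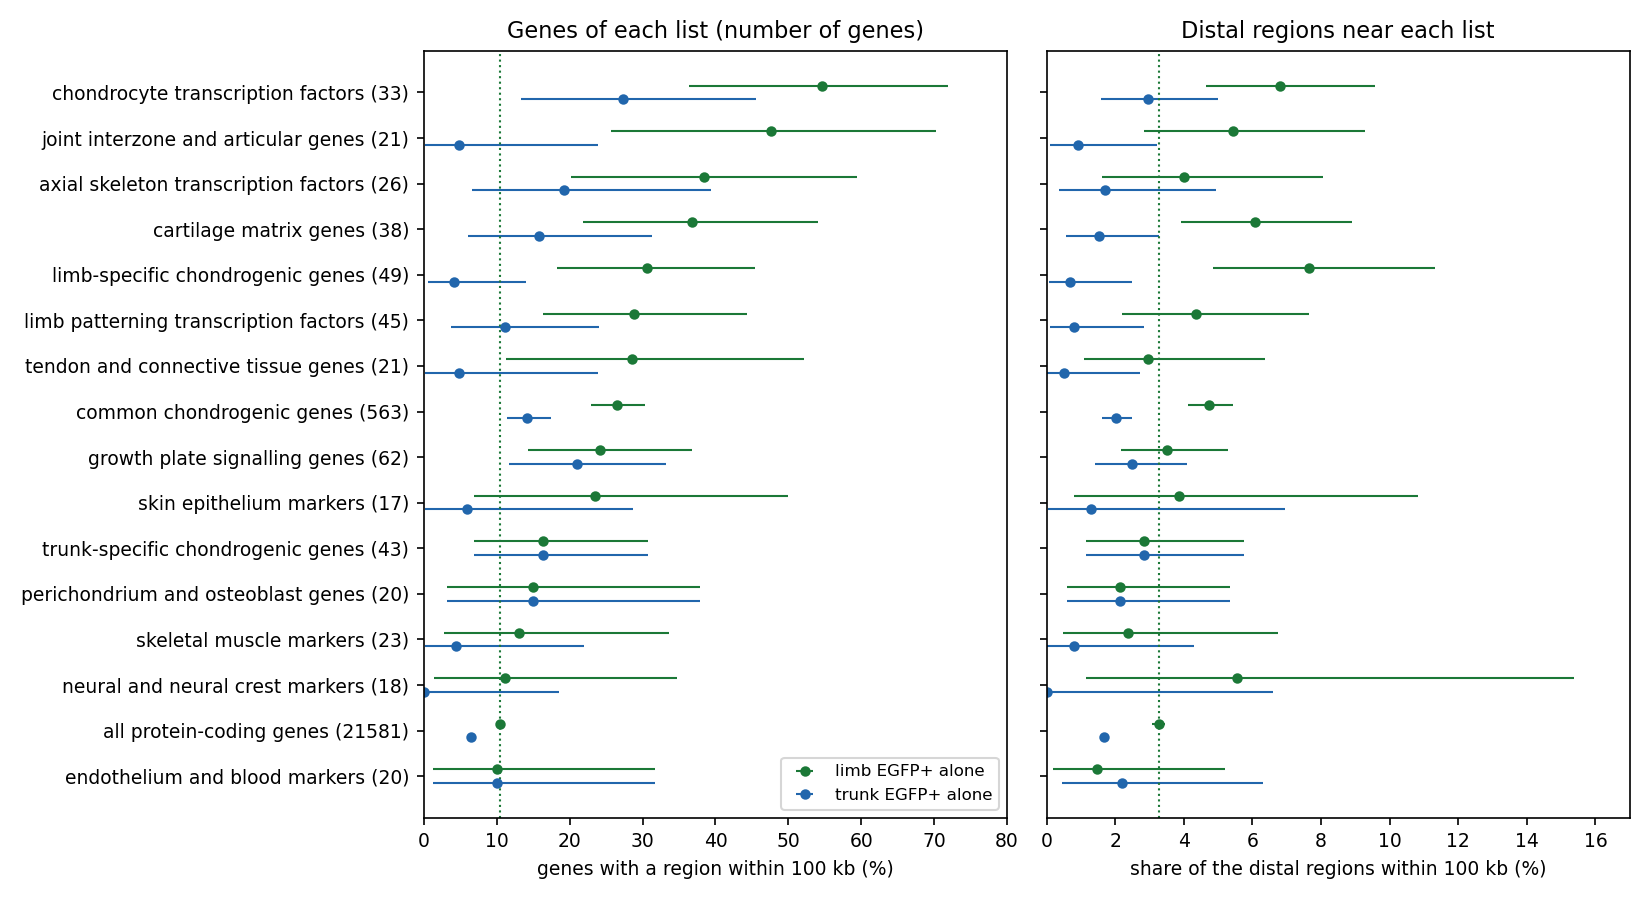
Left, share of the genes of each list (x axis, %) with a limb EGFP+ alone (green) or trunk EGFP+ alone (blue) region within 100 kb of a start site; right, the share of all distal regions within 100 kb of the list that belong to each set. Points are shares, lines exact 95% intervals, numbers in parentheses genes, and dotted lines the value for limb EGFP+ alone over all protein-coding genes (10.4% and 3.27%). Chondrocyte transcription factors have the highest share on the left (54.5%) and limb-specific chondrogenic genes on the right (7.64%).

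Among lists compiled from general knowledge, chondrocyte transcription factors came first. A limb EGFP+ alone region lay within 100 kb of 18 of 33 (54.5%, 36.4 to 71.9), although these genes had a median of 14 distal regions nearby, and per distal region the share was 6.80% (4.64 to 9.57). Of the same genes, 27.3% (13.3 to 45.5) had a trunk EGFP+ alone and 60.6% (42.1 to 77.1) a both EGFP+ only region. All protein-coding genes had 6.42% and 21.5%, so both of these sets were above their background too. For limb EGFP− alone regions the share was 6.06%. Beside Sox6 and Wwp2, Mef2c, a factor of chondrocyte hypertrophy, had 3 regions (−log10 p up to 11.8) and Foxc1 had 2. Joint interzone and articular genes followed with 10 of 21 (47.6%, 25.7 to 70.2), against 4.76% with a trunk EGFP+ alone region and 23.8% (8.22 to 47.2) with a limb EGFP− alone region. Their named members were Creb5 and Nfatc1 with 2 regions, and Chrdl2, a BMP antagonist gene, and Wnt4 with 1, and per distal region the share was 5.43% (2.84 to 9.29), whose interval includes the 3.27% of genes at large. Cartilage matrix genes had 14 of 38 (36.8%, 21.8 to 54.0) and 6.08% (3.93 to 8.91) per distal region, with Col11a1, Fibin (3), Susd5 (2) and Matn1 (2). Of these matrix genes, 15.8% (6.02 to 31.3) had a trunk EGFP+ alone, 81.6% (65.7 to 92.3) a both EGFP+ only and 5.26% a limb EGFP− alone region. Matn1, a cartilage matrilin gene, had 29 reads at its stronger region, 80.5 kb upstream.

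Growth plate signalling genes had 15 of 62 (24.2%, 14.2 to 36.7) and 3.50% per distal region, near the background. Within that list Bmpr1b had 4 regions, Cdon, a hedgehog co-receptor, 3, the FGF receptor gene Fgfr3 2, and Wnt5b 1. Limb patterning factors had 13 of 45 (28.9%, 16.4 to 44.3) and axial skeleton factors 10 of 26 (38.5%, 20.2 to 59.4), with overlapping intervals. Neighbouring genes shared regions, 11 in the limb and 7 in the axial list, so the genes are not independent. Per distal region the shares were 4.35% (2.19 to 7.65) and 4.00% (1.62 to 8.07), and both intervals include the 3.27% of genes at large. The axial list was led by the forkhead genes Foxc1, Foxc2, Foxf1 and Foxl1, and 3 of them shared 1 region (chr8:121901309-121901958). Perichondrium and osteoblast genes had 3 of 20 (Runx2 2 regions, Foxp1 and Sox11 1 each), and tendon and connective tissue genes 6 of 21 (28.6%, 11.3 to 52.2, an interval above the background), among them Tcf4, Osr1, Tcf7l2 and Col5a1, with 2.97% per distal region. Skeletal muscle markers had 3 of 23, skin epithelium 4 of 17, endothelium and blood 2 of 20 and neural markers 2 of 18, each with an interval that included the background of 10.4%.

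Limb patterning genes held some of the stronger regions. Between Tbx2 and Tbx4, a hindlimb T-box factor gene, a region of 884 bp (chr11:85742866-85743749) had 31 reads over 4.2 and a −log10 p of 17.2, and a further one lay 58.7 kb downstream of Tbx4 (27 reads, −log10 p 10.1). The promoter peak of Tbx4 had a −log10 p of 20.4 in limb EGFP+, 13.5 in limb EGFP− and 4.83 in trunk EGFP+ cells, and Tbx2 had one in limb EGFP+ alone. Lmx1b, which sets dorsal limb identity, had 2 weaker regions (−log10 p 6.36 and 4.24) and a promoter peak in limb EGFP+ alone. Msx1, a homeobox gene of limb mesenchyme, had 1 region 72.4 kb downstream with 17 reads over 1.76.

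A wider window, chosen after the values were seen, showed 5 regions within 500 kb of Pitx1, the homeobox gene of hindlimb identity, whose promoter had a peak in limb EGFP+ cells alone (−log10 p 6.04). The nearest lay 76.1 kb downstream in an intron of Pcbd2 with 22 reads, and the next 127 kb upstream (chr13:56110274-56111177) with 39 reads over 7.06 and a −log10 p of 16.9. The other 3 lay 315 to 324 kb upstream with 31 to 39 reads and −log10 p of 12.2 to 14.6. These last 3 are the regions that put Macroh2a1 and Tifab among the 10 genes with the most regions within 100 kb, and 2 of them lie within 100 kb of Neurog1. Within the same 500 kb lay 0 wide distal regions of trunk EGFP+ alone, 0 of limb EGFP− alone, 0 of trunk EGFP− alone and 2 of both EGFP+ only. Regions of other combinations of lists, among them both limb populations, and narrower regions were not counted in this window. No share of all distal regions there can thus be given. By the same window Sox9 had 5 limb EGFP+ alone and 18 both EGFP+ only regions, Tbx4 2 and 6, Tbx5 1 and 0, Shox2 1 and 0, Hoxd13 1 and 0, and Gdf5, a joint gene, 0 and 4. The Shox2 region, 179 kb downstream of this limb gene, had 28 reads over 4.88. Near Tbx5, the forelimb T-box gene, the limb EGFP− alone regions numbered 4.

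Promoters near the regions were mostly marked in all populations. The gene nearest to a region had a promoter peak in all 4 lists for 849 regions (58.8%, 56.2 to 61.3), against 47.4% of all protein-coding genes. This was no trait of the set, since trunk EGFP+ alone regions had 59.4% and limb EGFP− alone regions 62.2%. Trunk EGFP− alone and both EGFP+ only regions lay between these values, and each interval overlapped that of limb EGFP+ alone. The nearest gene had promoter peaks in EGFP+ cells but in no EGFP− list for 150 regions (10.4%, 8.86 to 12.1), against 3.89% of all genes. Trunk EGFP+ alone regions had 8.32% (6.41 to 10.6), an overlapping interval, and regions of both EGFP+ populations only had 10.1%. Limb EGFP− alone regions had 5.097% and trunk EGFP− alone regions 5.49%. A promoter peak in limb EGFP+ without one in trunk EGFP+ cells was found for 133 regions (9.20%, 7.76 to 10.8), against 3.39% of all genes. The share was 6.60% (5.79 to 7.48) for regions of both EGFP+ populations only and 6.10% (4.47 to 8.11) for trunk EGFP+ alone regions, and 6.50% (4.62 to 8.85) and 7.91% (5.60 to 10.8) for limb and trunk EGFP− alone regions. Of these intervals, that of both EGFP+ only lay apart and the other 3 overlapped. For 271 regions (18.8%) the nearest promoter had no peak in any list.

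In all, 31 motifs were searched on both strands within 250 bp of the summit. The homeobox core TAATTA, bound by paired-type and LIM homeobox factors and reading the same on both strands, was found in 195 regions (13.5%, 11.8 to 15.4). Its share was 7.35% (5.55 to 9.51) in trunk EGFP+ alone, 8.77% (7.85 to 9.76) in both EGFP+ only, 6.64% in all-population and 10.2% (9.89 to 10.46) in all distal regions, and none of these intervals reached that of the limb EGFP+ alone regions. It was 10.9% (8.46 to 13.8) in limb EGFP− alone and 9.23% in trunk EGFP− alone regions, with overlapping intervals. Base composition differed as well, with a median GC of the window of 46.7% against 48.1% in trunk EGFP+ alone, 48.7% in both EGFP+ only and 46.3% in limb EGFP− alone regions. Among windows with a GC below 45%, the core was found in 21.04% (17.7 to 24.7) of the limb EGFP+ alone, 13.1% (8.92 to 18.4) of the trunk EGFP+ alone and 14.8% (12.6 to 17.3) of the both EGFP+ only regions, apart from the last and overlapping at the edge with the trunk EGFP+ alone. Between 45 and 50% GC the shares were 11.5%, 7.47% and 8.94%, and at 50% or more 6.19%, 2.62% and 4.62%, the same order of these 3 sets in each range, with overlapping intervals in these. The EGFP− sets broke that order, since trunk EGFP− alone regions had 21.4% (13.2 to 31.7) below 45% GC and limb EGFP− alone regions 12.6% (8.22 to 18.1) between 45 and 50%. Compared with all distal regions the GC ranges gave 21.04% against 17.4% (16.8 to 18.1), 11.5% against 9.66% and 6.19% against 4.71%. The intervals overlapped in each range, unlike those over all windows. The core was no more frequent in stronger regions, at 14.4%, 14.1%, 13.02% and 12.5% in 4 groups of near-equal size from the lowest to the highest −log10 p.

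The SOX site ACAAAG had about the same share in these regions as in distal regions at large. It was found in 566 regions (39.2%, 36.6 to 41.7), in 38.5% of all distal regions and in 39.0% of the trunk EGFP+ alone and 38.6% of the both EGFP+ only regions, with overlapping intervals. Limb EGFP− alone regions had the highest share, 43.6% (39.5 to 47.8), whose interval overlapped as well. Further motifs whose intervals lay apart from both EGFP+ only regions were TTTTATNG of posterior HOX factors (10.0% against 7.55%) and TTTGAA of TCF/LEF factors (39.0% against 33.5%), both higher, and TGTTTAC of forkhead factors (5.47% against 8.05%), lower. Against trunk EGFP+ alone regions TAATTA was the 1 motif of 31 with intervals apart. A further SOX site, ACAATG, was found in 21.2% (19.2 to 23.4) of the limb EGFP+ alone and 21.3% of all distal regions. Its share was higher, with intervals apart, in limb EGFP− alone regions (27.1%, 23.5 to 30.9). In regions marked in all 4 populations it was lower, also with intervals apart (16.3%, 15.1 to 17.5). None of the motifs named here contains another, no correction for the 31 motifs was made, and a match is no evidence of binding.

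**Figure D5:**
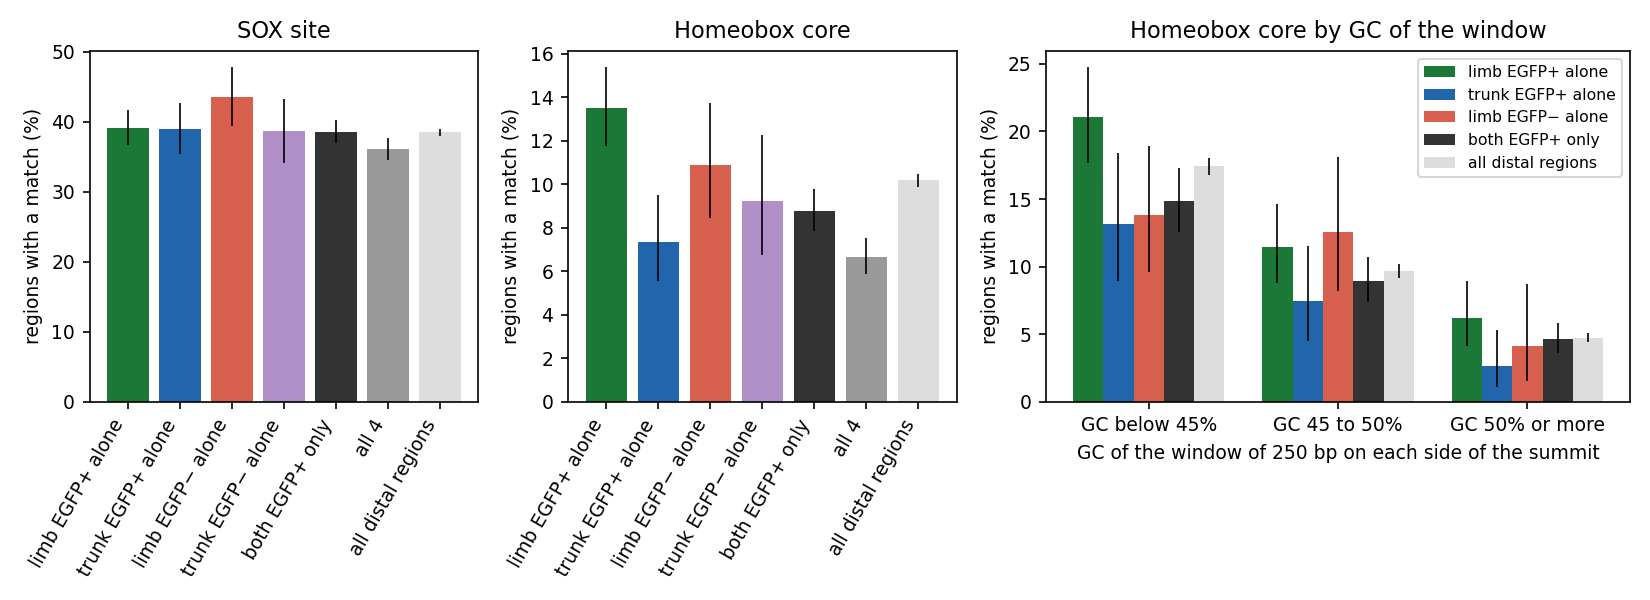
Share of regions (y axes, %) with a match within 250 bp of the summit to the SOX site ACAAAG (left) and the homeobox core (middle) in 7 sets of distal regions, and to the homeobox core by GC of the window (right, 5 sets); whiskers are exact 95% intervals. The homeobox core has its highest share over all windows in the limb EGFP+ alone regions (13.5%), while between 45 and 50% GC limb EGFP− alone regions have the higher value (12.6% against 11.5%). Trunk EGFP− alone regions are not drawn on the right.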

How the data were processed

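The H3K27ac ChIP-seq data comprised 4 lists of peaks, 1 per sorted population. The authors sampled equal numbers of reads with Seqtk, trimmed them (cutadapt 1.18 in the submitters' notes), mapped them to GRCm39 with Bowtie2 2.3.5.1, filtered on mapping quality with SAMtools and called peaks per library with MACS2 2.2.7.1 (no model, summits called, reads extended to 200 bp). A control library and a q-value threshold are not given in the sources used here. Each deposited list gives a score, a fold over background as a ratio, and −log10 p and −log10 q values. Reads of more than 1 length and more than 1 sonicator are named without assignment to libraries, and the names in the trunk EGFP− list carry Rep2 where its label says replicate 1.

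Rows that repeat an interval for a further summit were collapsed on chromosomes 1 to 19, X and Y, and peaks sharing at least 1 bp were merged. Start sites (67388, of 21581 genes) came from protein-coding transcripts of the GENCODE vM39 annotation on GRCm39, the build of the files. Summit reads and background were solved from fold and −log10 p, within 0.002 for 100% of peaks. Genes counted as near lay within 100 kb of a region, and motifs were matched exactly. Positions refer to protein-coding genes alone, and regions marked exonic touch an exon of a protein-coding transcript. Python 3.11.15, pandas 2.3.3, scipy 1.17.1 and pysam 0.24.0 were used, and membership, motif search and read recovery were checked on simulated data.

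The regions, gene lists and motifs were chosen with earlier results of these data known. Named regions are the 20 of highest −log10 p (1 of them is counted but not reported here by name), the 5 widest and those at the width threshold. Named genes are the 10 with the most regions within 100 kb (ties by summed −log10 p), 5 of each of the study's lists and up to 4 of each other list. Others are said to be chosen after their values were seen. Thresholds on q, p rank, fold and width, overlap, promoter filter, gene window and motif window were varied. No sample was left out, and each group held 1 library, so no test between groups was made.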

Additional observations from a re-analysis of the deposited data

How the results depend on the processing

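No paired analysis was possible because each group held 1 library and no test was made. The number of regions, 1445, became 781 when the limb EGFP+ peak needed a −log10 q of at least 5, 697 with a fold of at least 4, 937 with no other peak within 1 kb, 3288 at a width of at least 300 bp, 295 at 600 bp and 9319 with no minimum, and stayed within 1.5 times under 5 other alternatives.

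The share of regions within 100 kb of a limb-specific or common chondrogenic gene (15.2%) left its interval at 18.02% with −log10 q of at least 5 in all 4 lists, 20% with the 20000 strongest peaks per list, 12.3% with a fold of at least 4, 17.3% with no promoter filter, 12.3% with no minimum width, 10.52% in a 50 kb window and 35.2% in a 500 kb window. The share of limb-specific genes with a region (30.6%) became 16.3% with −log10 q of at least 5 in limb EGFP+, 14.3% with a fold of at least 4, 55.1% at 300 bp, 10.2% at 600 bp, 69.4% with no minimum width and 55.1% in a 500 kb window, and that of trunk-specific genes (16.3%) 62.8% with no minimum width and 46.5% in a 500 kb window. With no minimum width, the limb- and trunk-specific genes thus had like shares. With the 20000 strongest peaks per list the both EGFP+ only share of limb-specific genes fell to 12.2%, while the limb EGFP+ alone share was 22.4%. At 600 bp, 15.3% of the limb EGFP+ alone and 15.8% of the trunk EGFP+ alone regions lay within 100 kb of a limb-specific or common gene, so their order was reversed.

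The SOX site share (39.2%) moved with the motif window alone, to 17.9% at 100 bp and 62.3% at 500 bp. The homeobox core share (13.5%) became 10.8% with −log10 q of at least 5 in all 4 lists, 10.45% with the 20000 strongest peaks, 15.9% at 600 bp, 4.91% at 100 bp and 28.03% at 500 bp of the summit, and 21.04%, 11.5% and 6.19% in windows of GC below 45%, of 45 to 50% and of 50% or more, a split added after the data were seen. With the q and peak-number alternatives it was 6.39% and 6.16% in trunk EGFP+ alone, 7.88% and 7.86% in both EGFP+ only and 9.54% and 9.83% in limb EGFP− alone regions, and with the 20000 strongest peaks the intervals of limb EGFP+ alone (8.71 to 12.4) and both EGFP+ only (6.32 to 9.64) overlapped, as they did not otherwise here. The cause was not tested for any of these changes. Depth limits what absence from a list means: 12.2% of the regions had 2 times the reads needed for a trunk EGFP+ call.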

Other observations

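The E-box CAGCTG, bound by MYOD, was found within 250 bp of the summit in 25.8% (23.6 to 28.2) of the limb EGFP+ alone, 28.99% (25.7 to 32.4) of the trunk EGFP+ alone, 31.3% (27.5 to 35.3) of the limb EGFP− alone and 45.3% (40.6 to 50.0) of the trunk EGFP− alone regions, against 31.3% (30.8 to 31.7) of all distal regions. The interval of the limb EGFP+ alone regions lay below those of trunk EGFP− alone and of all distal regions, and overlapped the other 2. The E-box CATATG, bound by TWIST, was found in 8.65% (7.25 to 10.2) of the limb EGFP+ alone, 8.46% of the trunk EGFP+ alone, 15.8% (12.9 to 19.1) of the limb EGFP− alone and 8.57% of the trunk EGFP− alone regions, so only limb EGFP− alone lay apart among the 4. The GC box GGGCGG, a promoter motif, was found in 9.13% of the limb EGFP+ alone regions and 33.6% of the regions marked in all 4 populations.

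On scaffolds outside the chromosomes used, the limb EGFP+ list held 38 peaks, of which 4 overlapped no peak of another list and 0 of these were 400 bp wide.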
